A study of Drosophila melanogaster with 2 samples.

Results

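The 366 intergenic summits described here are the highest points of ChIP-seq peaks that lay outside every annotated gene and more than 500 bp from any transcript start. They are 366 of the 2993 peaks (12.2%, 95% Wilson interval 11.1 to 13.5%) in the reproducible dm6 list of a chromatin immunoprecipitation for CG10462, a Drosophila melanogaster protein that the reference annotation leaves uncharacterized. A summit is the base at the offset that the authors deposited for each peak, and its place was read against Ensembl genes with transposable elements left out. The other peaks comprised 1603 promoter summits, within 500 bp of a start, and 1024 genic summits, inside genes and farther from a start.

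The material was whole embryos of mixed sex, 0 to 24 h old, from transgenic flies that stably express CG10462 with green fluorescent protein (GFP) at its C-terminal end, and the precipitation used an antibody to GFP. There was 1 group, strain CG10462-GFP, with 2 samples labelled biological replicates 2 and 3. Whole embryos hold many cell types at once, so fewer cells with binding and weaker binding per cell cannot be told apart. The labels name a separate protocol document for each sample. They do not state which promoter drives the fusion, and no untagged or input sample was analysed here.

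In flies, the sequence between genes holds enhancers, which raise transcription of a gene at a distance, insulators, which limit which gene an enhancer reaches, and Polycomb response elements, which recruit silencing complexes. Regulatory genes of the embryo often have long stretches of such sequence on either side. Much of the remaining intergenic sequence is repeats, which are concentrated near the centromeres.

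The sequences at 6 of the strongest intergenic summits are printed first, because they differ in base composition and in the short sequences they carry. They are a selection, with ranks 41, 89, 116, 131, 164 and 175 in the combined list, where rank 1 is the strongest. The members at ranks 7, 59, 62, 102, 120 and 135 were passed over. Of these, the sites at ranks 102 and 120 held no match of the kind marked below, and the site at rank 135 held 1. The printed 6 therefore do not show how common such matches are among the members. Each printed sequence is 120 bases of the dm6 plus strand with the summit at base 61, taken from the Release 6 assembly. Capitals mark matches, on either strand, to TATAAA (the TATA box), TGATAA (bound by GATA factors), TTTTTTA (bound by Hunchback) or GGTCACAC (the core of Motif 1, bound by M1BP). These are matches of letters and not shown binding sites.
chr2L:2202342-2202461, between COX7AL2 and CG31668: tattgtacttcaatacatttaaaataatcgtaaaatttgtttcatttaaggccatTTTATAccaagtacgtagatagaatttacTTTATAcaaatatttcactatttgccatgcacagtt
chr3R:16222424-16222543, between lncRNA:CR45641 and lncRNA:CR45643: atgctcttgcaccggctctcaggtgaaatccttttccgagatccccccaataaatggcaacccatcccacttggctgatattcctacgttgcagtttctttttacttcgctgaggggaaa
chr3L:9855881-9856000, between RasGAP1 and CG10809: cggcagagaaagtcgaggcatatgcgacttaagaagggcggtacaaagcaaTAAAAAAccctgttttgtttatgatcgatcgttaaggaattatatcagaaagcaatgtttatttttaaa
chr2L:3832470-3832589, between slp1 and slp2: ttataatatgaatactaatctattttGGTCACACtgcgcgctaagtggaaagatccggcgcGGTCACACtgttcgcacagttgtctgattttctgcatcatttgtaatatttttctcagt
chr3R:16224448-16224567, between lncRNA:CR45643 and tara: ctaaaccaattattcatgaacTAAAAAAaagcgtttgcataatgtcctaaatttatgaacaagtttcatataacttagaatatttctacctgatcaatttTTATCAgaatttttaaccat
chr3R:21520320-21520439, between C15 and sp3: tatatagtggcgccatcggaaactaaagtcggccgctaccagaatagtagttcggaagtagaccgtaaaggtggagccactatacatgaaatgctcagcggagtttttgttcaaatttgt
G and C made up 25% of the 120 bases beside CG31668 and 24.2% of those beside tara, but 48.3% between the noncoding genes CR45641 and CR45643 and 44.2% beside C15. The stretch between slp1 and slp2 carried GGTCACAC at 2 places.

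The intergenic summits were on average weaker than the promoter summits of the list. The authors' signal per peak, whose scaling is not given in the sources used here, was used to rank peaks, so that rank 1 is the strongest. Members ran from rank 7 to rank 2972, with a median of 1710 (interval of the median 1529 to 1837), against medians of 1357 for promoter and 1606 for genic summits. The genic median lay inside that interval. In replicate 2 the median rank of the overlapping entry was 1615 for intergenic, 1308 for promoter and 1570 for genic summits, and in replicate 3 it was 1744, 1268 and 1578. The order of the 3 classes was therefore the same in both samples.

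The difference from promoter summits showed at both ends of the list. Of the members, 73 (19.9%) stood in the strongest 25% of the list and 118 (32.2%) in the weakest 25%. For promoter summits these shares were 29.4% and 22.4%. The difference between intergenic and promoter summits was -9.44 percentage points in the strongest 25% (Newcombe interval -13.8 to -4.53) and 9.84 points in the weakest 25% (4.80 to 15.2). Against genic summits it was 0.0235 points (-4.53 to 5.00) in the strongest and 5.68 points (0.313 to 11.3) in the weakest 25%. These intervals, like all those below, cover the sampling of peaks only, since peaks are not replicates and the lists give no read counts.

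Below the reproducible list the intergenic share was higher. Along the pooled relaxed list of 30000 entries, which holds background as well as peaks, it was 12.3% (11.2 to 13.5%) among the first 3000 entries and 15.5% among the next 3000. It was highest, at 22.7%, at ranks 21001 to 24000 and stood at 21.5% (20.1 to 23.0%) among the last 3000, against 27.2% of the sequence of the 6 chromosome arms that met the same position rule.

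Of the 15 strongest members, 3 flanked Psc or Su(z)2, neighbouring genes for Polycomb group proteins, which keep genes silent. The strongest of all, at chr2R:13035337 between Su(z)2 and CG13323, stood at rank 7 in the combined list, 9 by replicate 2 and 10 by replicate 3. Its deposited signal was 710 in the combined file, with 410 from replicate 2 and 294 from replicate 3. It lay 27426 bp beyond the end of Su(z)2 and 9358 bp from CG13323.

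On the other side of the gene pair, between CG13321 and Psc, were 2 members. The one at chr2R:12958256 had rank 59 in the combined list, 52 by replicate 2 and 85 by replicate 3, and the one at chr2R:12959456 had ranks 182, 159 and 232. Both lay nearer to CG13321, at 2544 and 3744 bp, than to Psc, at 7741 and 6541 bp. A further member beside Polycomb group genes, at chrX:2124097 between the duplicated polyhomeotic genes ph-d and ph-p, had ranks 436, 547 and 318. These 4 sites all stood at rank 547 or better in both samples, and the central 100 bp held 27.0 to 34.0% G and C.

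Other leading members lay beside genes of several kinds. The site at chr2L:2202402, between COX7AL2 (a cytochrome c oxidase subunit homologue) and CG31668, had rank 41 in the combined list, 40 by replicate 2 and 52 by replicate 3. The site at chr2R:22802943, between blw (the alpha subunit of mitochondrial ATP synthase) and CycB (cyclin B), had ranks 62, 58 and 83. The site at chr3L:9855941, 656 bp from a start of RasGAP1, a gene for a Ras GTPase-activating protein, had ranks 116, 118 and 118. For these the samples placed the site close together.

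The forkhead genes slp1 and slp2, which act in segmentation, had a member between them at chr2L:3832530, 4310 bp upstream of the slp2 start, with rank 131 in the combined list, 153 by replicate 2 and 117 by replicate 3. A pair of strong members stood on either side of the noncoding gene lncRNA:CR45643, next to tara, a Trithorax group gene. The one at chr3R:16222484 had ranks 89, 113 and 67 and the one at chr3R:16224508 had ranks 164, 95 and 478. Replicate 3 gave the stronger position at the first of these sites and replicate 2 at the second.

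The remaining sites among the 15 strongest were spread over 4 chromosome arms. Those at chrX:5696547 beside lncRNA:CR42794, chr3R:5113258 between CG43131 and RabGGTa, and chr2L:1638787 beside lncRNA:CR45695 had combined ranks 102, 120 and 135. The site at chr3R:21520380, 548 bp from a start of sp3 and on the other side next to the homeobox gene C15, had rank 175. The last of the 15 were at chr3L:724641 (rank 209) and at chr3L:3395016 (rank 211), the second of them next to sty (sprouty), whose product inhibits receptor tyrosine kinase signalling. In replicate 2 these 6 sites ranked between 76 and 171, and in replicate 3 between 111 and 394.

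Most members were also among the strongest entries of each sample. The reproducible list was derived from these same 2 samples, so such overlap was partly built into the choice of members. Of the 366, 249 (68.0%, 63.1 to 72.6%) overlapped by at least 1 bp one of the strongest 2993 entries of both replicates, against 75.2% of promoter and 66.8% of genic summits. The difference was -7.20 points from promoter summits (-12.6 to -2.14) and 1.24 points from genic summits (-4.45 to 6.67). At like strength the order was not constant. In the strongest 25% of the list the share was 95.9% of intergenic and 98.9% of promoter summits, and in the next 25% it was 90.6% and 96.5%. In the weakest 25% it was 28.8% of intergenic and 25.9% of promoter summits, and in the 25% above that 75.6% and 70.3%. The part of the members' weaker ranks in the difference over the whole list was not tested. Taken one sample at a time, 311 members (85.0%) were within the strongest 2993 of replicate 2 and 301 (82.2%) within those of replicate 3. The ranks in the 2 samples were within a factor of 2 for 247 members (67.5%), against 70.8% of promoter and 69.1% of genic summits. Spearman's rho of the ranks was 0.455 over the 360 members with an entry in both, 0.698 over 1588 promoter and 0.499 over 1000 genic summits. The points of these correlations are peaks of the same pair of libraries.

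**Figure D1:**
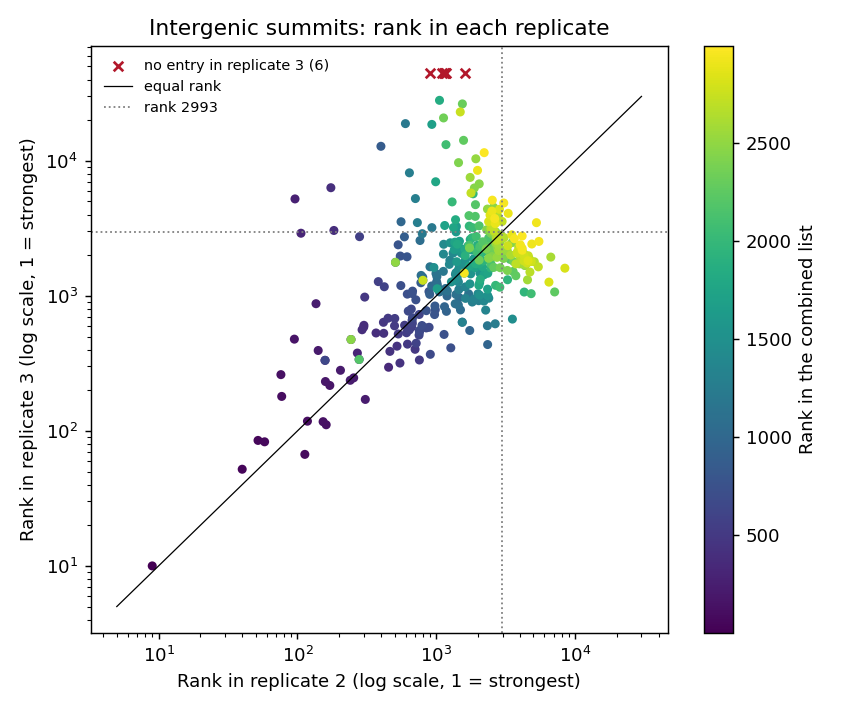
Rank of each intergenic summit in replicate 2 (horizontal, log scale) and replicate 3 (vertical, log scale), coloured by rank in the combined list, where each point is a summit and crosses are the 6 with no entry in replicate 3. The strongest members lie near the line of equal rank, and a group with ranks under 1000 in replicate 2 lies far above it.

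Some strong members rested mainly on replicate 2. Among members in the stronger 50% of the list, the 5 with the widest gap all had the better place in that sample. The site at chr2L:14557012, between lncRNA:CR44853 and lncRNA:CR44854, had rank 96 in replicate 2 and 5223 in replicate 3, with signals of 200 and 18.0. The sites at chr2L:14505214 and chr3R:5108156, the second 1022 bp from a start of CG43131, were at 174 and 399 in replicate 2, but at 6323 and 12812 in replicate 3. The site at chr2R:23228142, between LS2 and CG3092, was at 599 and 18860, and the site at chr4:497886, between Asator and the zinc finger homeobox gene zfh2, at 106 and 2910.

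No entry at all in replicate 3 was found for 6 members (1.64%, 0.753 to 3.53%), against 13 promoter (0.811%) and 24 genic summits (2.34%). In replicate 2 those 6 ranked from 897 to 1610, and in the combined list from 1925 to 2865. Every member had an entry in replicate 2. Across all members the direction was even, with 182 placed better in replicate 2 and 177 in replicate 3.

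The members were more frequent close to transcript starts than the sequence open to them. The rule sets a lower limit of 500 bp, so only the spread above it is described. Members lay at a median of 2890 bp from the nearest start (interval of the median 2333 to 3372 bp), against 5942 bp for all bases that met the rule, called eligible below. Among eligible bases that were not repeat-masked the median was 5244 bp. The median was 2854 bp when the rule was applied to the strongest 2993 entries of replicate 2 and 2858 bp for replicate 3.

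By distance, there were 21.9 members per Mb of eligible sequence at 500 to 1000 bp and 18.6 at 1000 to 2000 bp. The density was 12.7 per Mb at 2000 to 5000 bp, 7.81 at 5000 to 10000 bp and 7.41 at 10000 to 20000 bp. Beyond 20000 bp, which holds 21.8% of eligible bases, it was 1.51 per Mb, from 12 members. On unmasked sequence alone those farthest bases had 2.58 per Mb, against 27.6 per Mb at 500 to 1000 bp.

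**Figure D2:**
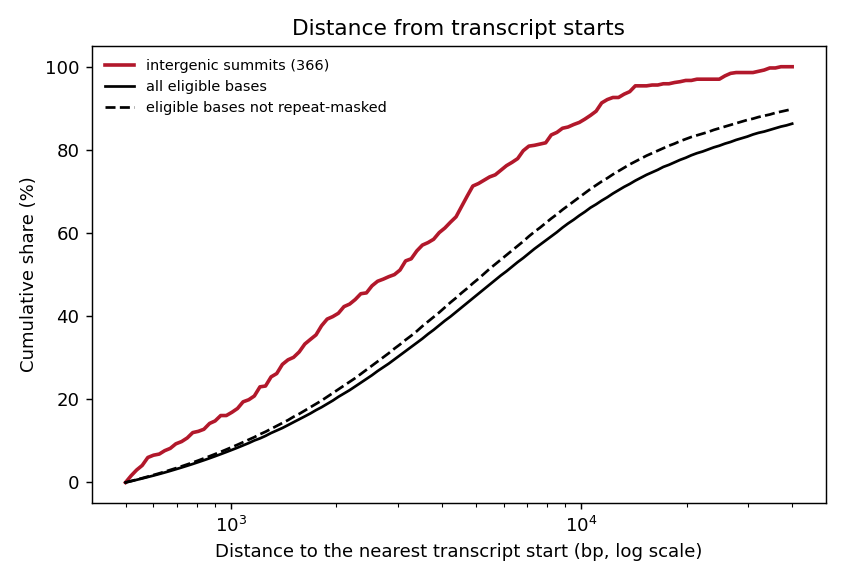
Cumulative share (vertical, %) of intergenic summits and of eligible bases by distance to the nearest transcript start (horizontal, bp, log scale), with the bases outside repeats as a dashed line. The curve of the summits lies left of both base curves, with medians of 2890, 5942 and 5244 bp.

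At the limit itself, the 3 members nearest to a start were at chr3L:5976508 and chr2L:19021916, both just past 500 bp from starts of CG10479 and CG15172, and at chr3L:12082333, 503 bp from Sema5c. Their ranks in the combined list were 382, 2418 and 1267. The 3 summits outside genes that fell just short were 499 bp from CG12402, 483 bp from lncRNA:CR45292 and 477 bp from stv, with ranks 1122, 2896 and 1137. The ranks of these few summits overlapped, and ranks on the 2 sides of the limit were not compared further. Within 100 bp beyond the limit lay 24 members, against 27 left-out summits within 100 bp short of it.

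At chr3L:10735279, in the stretch between NijA (ninjurin A) and CG43245, a member was 36646 bp from any start. The next was 33880 bp from vvl, a POU domain factor gene, at chr3L:6824038, with rank 838 in the combined list, 977 by replicate 2 and 841 by replicate 3. The third, at chr3L:18357799, was 33814 bp from lncRNA:CR46353, in the stretch that ends at rpr (reaper, an activator of cell death). That stretch of 73.5 kb held 3 members.

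The nearest start belonged to a protein-coding gene for 243 members (66.4%) and to a noncoding RNA gene of the ncRNA class for 111 (30.3%). It was a tRNA gene for 11 and a small nucleolar RNA gene for 1. Members were upstream of that start in 230 cases (62.8%, 57.8 to 67.6%) and downstream, beyond the gene's end, in 136. Of eligible bases, 58.5% were upstream of their nearest start, which lies inside that interval. By the nearest gene body, 187 members (51.1%) were on the start side and 179 on the end side.

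Taken over all distances together, members were denser between divergent genes, whose starts face the stretch from both sides, than between other genes. Such stretches held 107 members (29.2%, 24.8 to 34.1%) and 20.3% of eligible sequence, or 14.5 members per Mb. Tandem genes had 182 members (49.7%) on 50.5% of the sequence, 9.89 per Mb. Convergent genes had 77 (21.0%) on 25.5%, 8.27 per Mb. In the single samples the divergent share was 29.1% for replicate 2 and 28.3% for replicate 3. Of eligible sequence between divergent genes, 2.23 of 7.39 Mb lay within 2000 bp of a start, against 1.17 of 9.31 Mb between convergent genes, so the densities were set side by side at like distances. At 500 to 2000 bp they were 23.8 per Mb (exact Poisson interval 17.8 to 31.1) between divergent and 13.7 (7.81 to 22.2) between convergent genes. At 2000 to 5000 bp they were 15.4 (10.6 to 21.6) and 13.3 (8.92 to 19.1), and beyond 5000 bp 6.95 (4.30 to 10.6) and 5.37 (3.67 to 7.58). Between tandem genes the densities were 19.6 (15.5 to 24.5), 11.2 (8.40 to 14.7) and 5.30 (3.96 to 6.96) in the same order of distance. The intervals of all layouts overlapped at each distance.

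The left arms of the large autosomes held most of the members. On 2L there were 96 and on 3L 121, together 59.3% of members on 43.3% of eligible sequence. The density was 14.3 members per Mb on 2L (11.6 to 17.5) and 13.3 on 3L (11.1 to 15.9). It was 6.04 on 2R (4.41 to 8.09), 7.95 on 3R (6.08 to 10.2) and 7.34 on X (5.22 to 10). Chromosome 4 had 4 members, 16.3 per Mb with an interval of 4.44 to 41.8.

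The difference between left and right arms was seen in each sample. Replicate 2 gave 12.8 intergenic summits per Mb on 2L, 14.1 on 3L, 6.98 on 2R and 7.56 on 3R. Replicate 3 gave 14.0, 13.7, 6.85 and 9 in the same order of arms. Per unmasked Mb the combined list had 18.7 on 2L, 18.3 on 3L, 8.59 on 2R and 10.6 on 3R. The masked share of eligible sequence was 23.7 to 29.6% on these arms.

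The same contrast appeared without any sequence length, as the intergenic share of an arm's own summits. On 2L and 3L together 17.4% of summits were intergenic, against 8.67% on 2R and 3R, a difference of 8.71 points (6.08 to 11.3). In replicate 2 the shares were 17.2% and 8.83%, and in replicate 3 17.7% and 9.87%. Promoter and genic summits together numbered 1032 on these left and 1117 on these right arms. By distance from a start, 3L and 3R were close at 500 to 2000 bp, with 21.0 members per Mb (14.5 to 29.5) on 3L and 19.2 (13.2 to 27.0) on 3R, while 2L had 28.5 (20.8 to 38.0) and 2R 13.0 (7.56 to 20.8). Beyond 5000 bp 3L had 8.96 members per Mb (6.65 to 11.8) and 2L 7.38 (4.68 to 11.1), against 3.44 on 3R (1.83 to 5.88) and 1.97 on 2R (0.899 to 3.73). When summits over 200 bp from a start were admitted, the ratio of 3L to 3R density was 1.23 (0.967 to 1.56), against 1.68 at 500 bp.

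**Figure D3:**
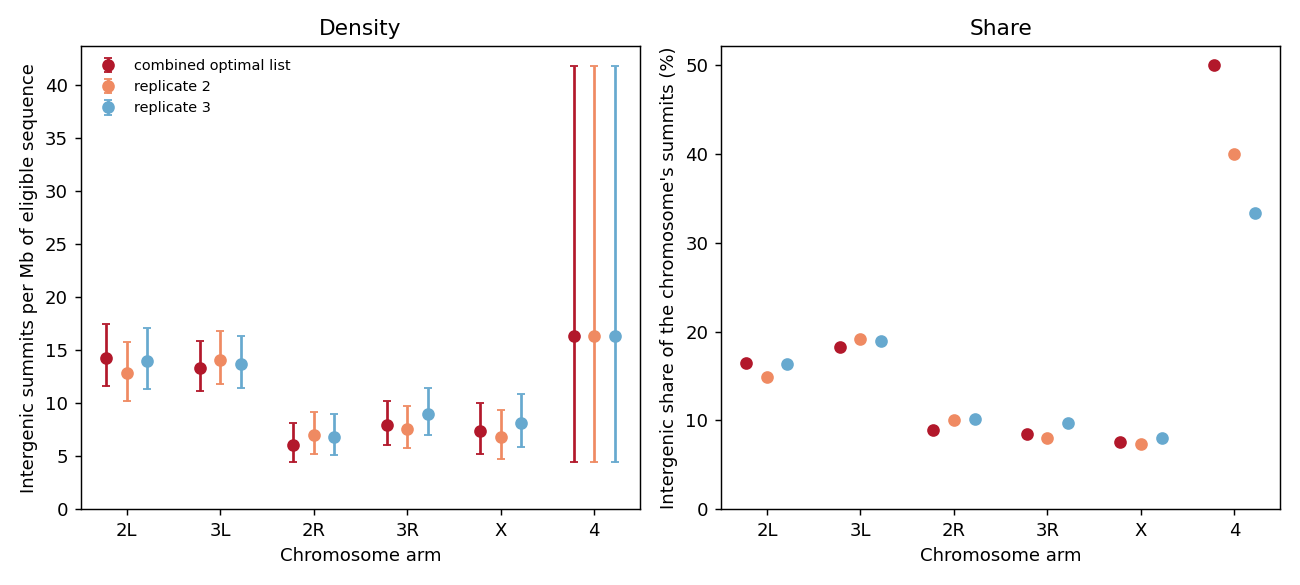
Intergenic summits per Mb of eligible sequence (left, with exact 95% Poisson intervals) and the intergenic share of each arm's summits in % (right) for the combined list and the strongest 2993 entries of each replicate. In all 3 lists 2L and 3L lie above 2R, 3R and X, and chromosome 4 rests on 4 summits in each list.

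A few stretches between genes held many members. The 366 members fell into 277 of the 6528 stretches with eligible sequence (4.24%), and 153 members (41.8%) shared their stretch with another. There were 213 stretches with 1 member, 49 with 2, 9 with 3, 4 with 4, and 1 each with 5 and 7. Stretches that held a member had a median length of 8302 bp, against 1666 bp for all stretches with eligible sequence.

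The stretch with 7 members was the 75 kb between NijA and CG43245 on 3L, and the members lay in its right part, from 38.4 to 73.0 kb. Its strongest 3 had combined ranks 483, 539 and 586, and replicate 2 put them at 305, 610 and 716, replicate 3 at 979, 533 and 446. The other 4 ranked between 2195 and 2382 in the combined list. Taken alone, replicate 2 and replicate 3 each had 7 intergenic summits in this stretch among their strongest 2993 entries.

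On 3L as well, 5 members lay within 9.50 to 16.3 kb of the 19.1 kb between lncRNA:CR44363 and CG7560, the strongest at rank 542 (664 in replicate 2 and 589 in replicate 3). Replicate 2 alone had 5 summits there and replicate 3 had 6. The 4 stretches with 4 members were beside scyl (an inhibitor of growth signalling through TOR), comm2 (a relative of the axon guidance gene comm), tRNA:Ile-TAT-1-2 and Rh5 (a rhodopsin gene). The samples agreed less there, with 5 summits in replicate 2 and 2 in replicate 3 beside scyl, 4 and 2 beside comm2, 3 and 4 beside the tRNA gene, and 3 and 2 beside Rh5. Beside comm2 and beside Rh5, 2 of the 4 members stood 199 bp apart and shared a single entry in each replicate.

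**Figure D4:**
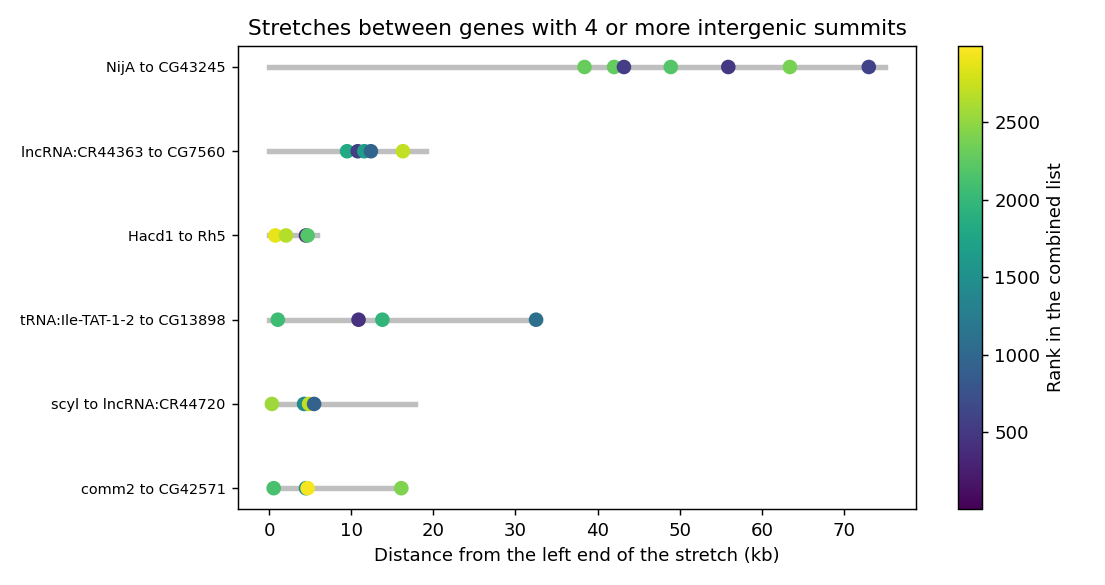
Positions of intergenic summits (points, coloured by rank in the combined list) along the 6 stretches between genes that held 4 or more of them (grey bars), in kb from the left end of each stretch. The 7 summits between NijA and CG43245 lie from 38.4 to 73.0 kb of a 75 kb stretch.

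Another summit of the list lay within 2000 bp of 97 members (26.5%, 22.2 to 31.3%), against 23.0% of promoter and 27.2% of genic summits. For 78 of the 97 the nearest was itself intergenic. In 8 pairs the members stood 199 to 226 bp apart, such as chr3L:724641 and chr3L:724840, and each pair shared a single entry in each replicate. The ranks in the replicates given for the weaker member of such a pair are therefore those of the shared entry.

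The summits lay on AT-rich sequence that rose sharply in G and C on both sides. The central 100 bp held 33.3% G and C (SD 8.18 over 366 members), against 43.4% (SD 9.58) in the 100 bp centred 400 bp to the left, a difference of -10.1 points (-11.4 to -8.74). The difference was -12.6 points (-13.3 to -11.9) for promoter and -11.3 points (-12.1 to -10.6) for genic summits. It was -9.49 points in the strongest 2993 entries of replicate 2 and -10.1 points in those of replicate 3. Eligible sequence as a whole averaged 40.9% G and C (SD 9.75) over 356713 tiles of 100 bp. The centre was lower than the left flank in 287 members (78.4%), and single members ran from 11 to 60% in the centre.

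In windows of 50 bp, the mean was 32.6% at the summit, 45.1% at 300 bp to the left and 43.9% at 300 bp to the right. It was 41.3% at 1000 bp on either side. Around intergenic summits G and C thus stood above the eligible mean in the flanks and fell back to near it within 1 kb. Genic summits had the same shape, with 40.7% at 1000 bp to the left, whereas promoter summits still had 45.1% there. The mean difference between centre and left flank was -10.9 points in the strongest 25% of the list, -11.0 and -9.01 points in the next bands of 25%, and -9.69 points in the weakest 25%.

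**Figure D5:**
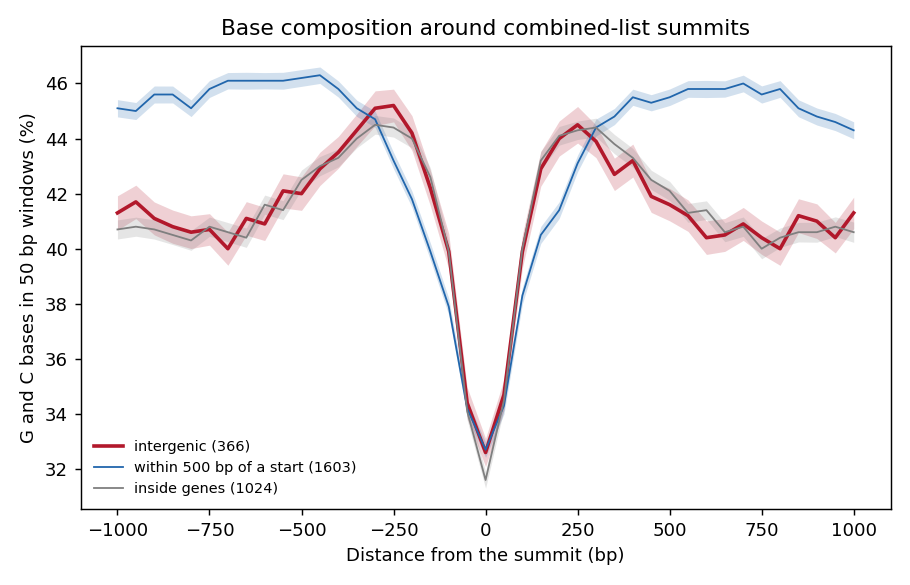
Mean share of G and C (vertical, %) in 50 bp windows by distance from the summit (horizontal, bp) for intergenic, promoter and genic summits, with bands of 1 standard error over peaks. The intergenic curve is at 32.6% in the centre and 45.1% at 300 bp to the left, and returns to 41.3% at 1000 bp.

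Some strong members had no AT-rich centre. At chr3R:16222484, whose sequence is printed above, the centre held 48.0% and the left flank 24.0%, and at chr3R:21520380 beside C15 they held 48.0% and 32.0%. By contrast, at chr2R:12959456 beside Psc the centre held 29.0% and the flank 62.0%. Of the 366 members, 79 were not lower in the centre.

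Repeat-masked bases made up 20.6% of the central 100 bp (SD 20.8) and 16.3% of the left flank (SD 19.2), against 26.8% of eligible tiles (SD 31.6). For promoter summits these means were 24.1% and 12.3%, and for genic summits 21.9% and 18.1%. No masked base was found in the centre of 114 members. A single member, chr2L:4030632 at rank 1476, lay in an annotated transposable element, of the INE-1 family; it was named after its values were seen.

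Short consensus sequences were counted on either strand in the central 100 bp, and 28 were searched. Of these, 13 matched more centres than left flanks, 12 fewer and 3 as many. Several made mostly of A and T were in more centres than flanks, and their frequency moves with the base composition given above, whose part in these counts was not tested. TATAAA was in 72 centres (19.7%, 15.9 to 24.1%) and 36 left flanks, against 12.4% of eligible tiles. It was in 23.1% of promoter and 22.7% of genic centres. TTTTTTA was in 46 centres (12.6%) and 23 left flanks, against 7.70% of tiles, 14.8% of promoter centres and 13.2% of genic centres.

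TGATAA, the consensus of GATA factors, was in 46 centres (12.6%, 9.56 to 16.4%), 22 left and 34 right flanks, and 6.24% of tiles. Among promoter summits it was in 8.11% of centres, a difference of 4.46 points (1.12 to 8.45), and among genic summits in 10.3%, a difference of 2.31 points (-1.31 to 6.47). The variant AGATAA did not have this pattern, with 22 centres (6.01%), 12 left and 29 right flanks, and 5.69% of tiles. It was in 7.86% of promoter centres, a difference of -1.85 points (-4.31 to 1.32), and in 9.77% of genic centres, a difference of -3.75 points (-6.57 to -0.389). TGCATA, from the core bound by the insulator protein Su(Hw), was in 41 centres, 27 left flanks and 23 right flanks. The forkhead sequence TAAACA was in 36 centres (9.84%), against 15.2% of promoter centres (-5.32 points, -8.55 to -1.46) and 16.6% of genic centres (-6.77 points, -10.3 to -2.67). The Tinman sequence CACTTGA was in 11 centres (3.01%), 9 left and 6 right flanks. It was in 1.19% of promoter centres (1.82 points, 0.346 to 4.15) and 1.46% of genic centres (1.54 points, -0.0780 to 3.91).

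Sequences known from fly promoters differed in how often they were at the members. TCAGT, the Initiator, was in 65 centres (17.8%), against 15.3% of promoter centres, 20.1% of genic centres and 15.1% of tiles. TATCGATA, the DNA replication-related element bound by Dref, was in 0 of 366 centres, which allows a share of up to 0.820% when the limit is set at 3 counts, in 41 of 1603 promoter centres (2.56%) and in 3 of 1024 genic centres (0.293%). The difference was -2.56 points from promoter (-3.45 to -1.32) and -0.293 points from genic summits (-0.858 to 0.764), and 0.212% of eligible tiles held it. CGATA, which BEAF-32 binds and which is part of TATCGATA, was in 29 centres (7.92%) against 18.2% of promoter centres, -10.3 points (-13.4 to -6.59), and 10.9% of genic centres, -3.01 points (-6.14 to 0.663). In left flanks of members CGATA was in 9.56%, and in 10.4% of tiles. GGTCACAC was in the centre of 1 member, the site between slp1 and slp2 printed above, of 23 promoter summits (1.43%) and of 0 genic summits, and in 0.130% of tiles.

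AGGNGGC, from the centre of the CTCF consensus, was in 13 centres (3.55%, 2.09 to 5.98%), 11 left flanks and 18 right flanks, against 2.00% of promoter and 1.66% of genic centres. The differences were 1.56 points (-0.117 to 4.05) and 1.89 points (0.128 to 4.40). The 3 strongest with it were at chr2L:9567502, 752 bp from jp (junctophilin), at chr2R:8014402, 647 bp from CG14762, and at chr2L:8846119 beside the neural gene SoxN. They had ranks 246, 563 and 571 in the combined list. Replicate 2 put them at 136, 382 and 280 and replicate 3 at 875, 1275 and 2744, so all 3 stood higher in replicate 2. Of the 13, however, 8 stood higher in replicate 3.

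Several sequences with at least as much G and C as A and T were in fewer centres than flanks. GGGCGG was in 5 centres, 19 left and 20 right flanks, and GAGAG, bound by GAGA factor, in 30, 53 and 58. CACACACA was in 2, 14 and 8, and GCCAT, the core bound by the Polycomb recruiter Pho, in 51, 69 and 65. Among the 28 sequences, 10 were in more centres than either flank and 11 in fewer than either.

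Members lay beside genes of most lists of embryonic patterning. Across 9 lists of patterning and tissue genes, 122 genes bordered a stretch with eligible sequence and 21 of them (17.2%) had a member in it, against 522 of 9278 genes (5.63%) in all. Those genes border longer stretches, with a median of 5219 bp against 1666 bp. Per Mb of eligible sequence the stretches beside them held 18.6 members (12.6 to 26.6), against 10 (9.04 to 11.1) over all stretches. This is a description of lists drawn up with results of these data known. The symbols otd, h, doc1, Dl and duf of these lists had no match in the annotation and were not counted. Here and below, genes that border the same stretch were each counted, as with slp1 and slp2, Wnt4 and wg, and ph-d and ph-p.

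The share of genes with a member varied, but a difference in density between these 9 lists was not shown, since their intervals all overlapped. Above 0, densities ran from 11.1 members per Mb (2.29 to 32.5) for appendage and eye genes to 55.6 (15.2 to 142) for Notch pathway genes. Only the Notch pathway interval, from 4 members on 0.0719 Mb, lay above the 10 per Mb over all stretches. Of gap and head gap genes, which act first in dividing the embryo, 3 of 9 had members: ems, kni and oc. The strongest, at chr3R:13914892, was 13039 bp from ems, with rank 1130 in the combined list, 1708 by replicate 2 and 1035 by replicate 3. Of pair-rule genes 3 of 9 did, slp1, slp2 and opa, led by the site between slp1 and slp2 described above. Of the segment polarity, Wingless and Hedgehog list 5 of 20 did. Its leading sites were at chr2L:5476843 beside the T-box gene mid (rank 469, with 416 in replicate 2 and 637 in replicate 3), chr3L:14272607, 1736 bp from the receptor gene fz (665, 754 and 553), and chr2R:8644385, 5264 bp from the receptor gene ptc (666, 846 and 579).

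Dorsoventral genes had members beside 2 of 15, the LIM homeobox gene tup and the T-box gene Doc2, and neuroblast genes beside 2 of 13, SoxN and D (Dichaete). The Doc2 stretch held the sites at chr3L:9025837 and chr3L:9023787, with combined ranks 1020 and 1151. Notch pathway genes had members beside 3 of 18, Ser, Tom and fng, and appendage and eye genes beside 3 of 19, C15, hth and toy. Hox genes had 0 of 8 and muscle genes 0 of 13. Next to Hox genes there was only 0.0546 Mb of eligible sequence, and next to muscle genes 0.0988 Mb. The intervals reach 67.6 and 37.3 members per Mb, so absence is not shown at these sizes.

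Among the remaining lists, Polycomb and Trithorax genes had members beside 4 of 13, the Psc, Su(z)2, ph-d and ph-p sites given above. That list did not include tara, a Trithorax group gene that also borders a member, as described above. Ribosomal protein genes had members beside 2 of 49 (4.08%), RpLP0 and RpL17, at combined ranks 2445 and 2956. Insulator protein genes had 0 of 3, and the symbols Z4 and zw5 of that list had no match in the annotation. Their eligible sequence was only 0.00140 Mb, for which the interval reaches 2637 members per Mb, so absence is not shown. Genes for tRNA and other small structural RNAs had members beside 13 of 100 (13.0%), which came to 16 members. The strongest of these, at chr3R:14053606 between tRNA:Ser-GCT-2-2 and foxo, had rank 351 in the combined list, 453 by replicate 2 and 296 by replicate 3. Their stretches held 17.6 members per Mb (10.1 to 28.6), and stretches beside any gene of the ncRNA class 12.4 (10.7 to 14.4).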

How the data were processed

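Peaks came from ChIP-seq of 2 samples of 1 group. The authors deposited, per the sample notes, a relaxed dm6 list for each replicate and for the pooled alignments, each made against 1 control, and an optimal list derived from them by the irreproducible discovery rate, which scores the agreement of ranks across replicates. Which aligner and caller made them is not given in the sources used here. Peaks carry a deposited signal value, used only to rank within a list, a deposited −log10 q-value, not used, and the authors' summit offset. The optimal list equalled the 2993 strongest pooled entries. No read counts are given, so depth is unknown. The deposited dm3 lists were not used here.

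Genes came from Ensembl release 115 and soft-masked sequence from the RefSeq copy of Release 6, the dm6 assembly. Positions count from 1. With 2 replicates of 1 group there is no test between conditions; shares have 95% Wilson intervals, differences of shares Newcombe intervals, densities exact Poisson intervals, means normal intervals, and medians binomial intervals. A promoter or genic class served for comparison. Eligible sequence is outside genes and over 500 bp from a start. The genes on each side are those ending or starting at the edge of the stretch. Members and lists were chosen with earlier results of these data known. Named sites are the 15 strongest, those in the 6 fullest stretches, the 5 most discordant in the stronger 50%, those at the limit or farthest from a start, the strongest with a CTCF or TATCGATA match, and up to 3 beside each gene list. Code was tested on simulated data. Scripts ran under Python 3.11.15, using scipy 1.17.1, pandas 2.3.3 and numpy 2.4.6; plots came from matplotlib 3.10.9.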

Additional observations from a re-analysis of the deposited data

How the results depend on the processing

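Of 70 recomputed values, 52 stayed within the interval, or for counts within a factor of 1.5, of the value given, and 18 moved. No G and C difference changed sign, and every ratio of 3L to 3R density stayed above 1. Counts have no direction. Of the 28 consensus sequences, 12 matched more centres than right flanks, against 13 for left flanks. Taking each replicate alone gave a share of 12.2 to 12.9%, a G and C difference of -10.1 to -9.49 points, a median distance of 2854 to 2858 bp, a ratio of 3L to 3R density of 1.52 to 1.87 (1.68 in the combined list) and a divergent share of 28.3 to 29.1%. A limit of 200 bp gave a share of 19.4%, a median rank of 1517, a median distance of 1166 bp, a divergent share of 35.7% and a 3L to 3R ratio of 1.23 (interval 0.967 to 1.56). A limit of 1000 bp gave 10.2% and 3777 bp. Protein-coding genes alone gave 15.4%, 4242 bp and 34.8% divergent. The stronger 50% of the list gave a share of 10.6%, a median rank of 788, 93.0% in both replicates, 0 without an entry in replicate 3 and 20.9% with a near summit. Near summits were at 13.7% within 1000 bp and 42.6% within 5000 bp. A window of 200 bp gave a G and C difference of -8.31 points. Restricting density to unmasked sequence, an alternative chosen after seeing the data, gave a 3L to 3R ratio of 1.73. The cause of these moves was not tested. No paired analysis was possible because there is 1 group. Without read counts or a control track, the lists do not show how depth or mappability limits these values.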
